A study of Mus musculus with 90 samples.

Results

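The genes described here are 30 enzymes and regulators of cholesterol and fatty acid synthesis that the SREBP transcription factors are known to control, taken by symbol from a table of 24543 genes. They were followed in 90 RNA-seq libraries of mouse bone marrow-derived macrophages (BMMs), phagocytes obtained by culturing marrow in M-CSF, in 38 groups of 2 or 3 libraries. In the first experiment, Irf8-/- cells (KO) and Irf8+/+ cells (WT) were sampled with M-CSF alone at day 0, and at days 4 and 8 with RANKL added, the cytokine under which BMMs fuse into bone-resorbing osteoclasts (3 libraries per group, 2 for WT at day 4). In the second, Irf8-/- cells transduced with human IRF8 (hWT), with human IRF8 carrying the change G388S (hG388S) or with a construct the labels call hIRF8379-389 (h379_389), and cells of a control called mock were sampled on the same days (3 libraries per group, 2 at day 8 except for h379_389 with 3). A further experiment kept the 4 kinds of cell as macrophages: untreated, given interferon-gamma (IFNg), or given IFNg together with LPS, a bacterial cell wall product, for 1, 4 or 8 h (2 libraries per group). By the labels the constructs went into Irf8-/- cells, whereas for mock the labels state neither the genotype nor what the cells received. RANKL and time in culture changed together and cannot be told apart. Mice and cells of both sexes were used, and the labels do not say whether the libraries of a group came from separate animals or cultures, so a p-value measures only the spread between these libraries.

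The SREBPs are made as membrane proteins of the endoplasmic reticulum, where SCAP, the sterol sensor, escorts them to the Golgi when cholesterol is scarce, and INSIG proteins hold them back when it is plentiful. Once cut free, SREBP2 (gene Srebf2) mainly drives the mevalonate and cholesterol genes and SREBP1 (gene Srebf1) the fatty acid genes. The mevalonate pathway also makes the isoprenoid anchors of small GTPases, which osteoclasts need to resorb bone, and its enzyme farnesyl diphosphate synthase (Fdps) is the target of the nitrogen-containing bisphosphonate drugs. In macrophages, interferon signalling is known to lower cholesterol synthesis, in part through 25-hydroxycholesterol, and unsaturated fatty acids shape the end of an inflammatory response.

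The members fall into 5 groups by role. The regulators are Srebf1, Srebf2 and Insig1. The mevalonate branch to squalene holds Acat2, Hmgcs1, Mvk, Pmvk, Mvd, Idi1, Fdps and Fdft1. The steps from squalene to cholesterol are Sqle, Lss, Cyp51, Msmo1, Nsdhl, Hsd17b7, Ebp, Sc5d, Dhcr7 and Tm7sf2, and Stard4 carries cholesterol between membranes. Fatty acid synthesis and desaturation holds Acly, Acaca, Fasn, Elovl6, Scd1, Scd2, Fads1 and Fads2. On chromosome 19, Fads1 (chr19:10182888-10196877, plus strand) and Fads2 (chr19:10062765-10101746, minus strand) are neighbours, as are Scd1 (chr19:44394455-44407879, minus strand) and Scd2 (chr19:44293674-44306864, plus strand); reads of such related genes may be placed with less certainty (GRCm38, GENCODE vM21).

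The promoters of 5 members are shown because these genes take up the start of the mevalonate branch, its regulator and the fatty acid synthase, and they moved in different directions in the experiments below. RefSeq promoter windows of build GRCm38.p6, 300 bases each, were found for 23 of the 30 members. The stretches below are the 250 bases before the start, written 5′ to 3′ on the gene's strand. Capitals mark the letters CCAAT, the NF-Y box, and TCACNCCAC, a sterol response element, on either strand.
Hmgcs1 (chr13:119690101-119690350, plus strand): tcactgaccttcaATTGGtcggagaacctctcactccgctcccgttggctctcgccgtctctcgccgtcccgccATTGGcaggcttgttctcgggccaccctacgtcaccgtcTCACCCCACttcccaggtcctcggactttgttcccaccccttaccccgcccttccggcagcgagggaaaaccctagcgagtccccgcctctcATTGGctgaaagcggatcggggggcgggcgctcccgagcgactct
Mvk (chr5:114444019-114444268, plus strand): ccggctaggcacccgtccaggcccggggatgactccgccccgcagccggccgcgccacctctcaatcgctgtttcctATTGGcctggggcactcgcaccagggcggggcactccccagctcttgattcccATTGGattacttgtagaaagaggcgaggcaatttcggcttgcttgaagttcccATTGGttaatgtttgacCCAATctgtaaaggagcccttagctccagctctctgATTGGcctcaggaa
Insig1 (chr5:28071162-28071411, plus strand): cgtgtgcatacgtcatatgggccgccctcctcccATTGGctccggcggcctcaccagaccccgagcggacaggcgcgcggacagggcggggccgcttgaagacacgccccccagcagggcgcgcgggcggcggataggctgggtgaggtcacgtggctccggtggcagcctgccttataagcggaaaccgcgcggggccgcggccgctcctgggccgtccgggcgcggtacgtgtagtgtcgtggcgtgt
Idi1 (chr13:8885356-8885605, plus strand): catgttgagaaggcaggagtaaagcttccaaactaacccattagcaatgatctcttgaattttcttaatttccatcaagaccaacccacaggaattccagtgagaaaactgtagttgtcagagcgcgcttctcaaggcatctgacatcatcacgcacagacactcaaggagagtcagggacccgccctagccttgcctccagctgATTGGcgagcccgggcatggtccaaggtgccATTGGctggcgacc
Fasn (chr11:120824548-120824797, minus strand): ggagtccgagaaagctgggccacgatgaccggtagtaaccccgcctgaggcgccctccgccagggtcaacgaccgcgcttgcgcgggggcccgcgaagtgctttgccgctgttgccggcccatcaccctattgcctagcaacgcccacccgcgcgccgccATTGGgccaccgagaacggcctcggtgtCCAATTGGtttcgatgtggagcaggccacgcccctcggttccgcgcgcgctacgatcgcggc
CCAAT was found on either strand in the windows of 19 of the 23 members, and in 71.4% of 28 member windows against 37.4% of all 32851 windows. GGGCGG, the core of the Sp1 box, was also found in 19 of 23, in 75.0% of member windows against 35.7% of all. TCACNCCAC was found in the window of 1 member, Hmgcs1, and in 1.24% of all windows; CACGTG, the E-box, was in the windows of 4 members and in 7.15% of all. The exact letters TCACCCCAC, which are a special case of TCACNCCAC, were in 0.551% of all windows.

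Levels are in RPKM, which counts reads relative to gene length and to the alignments of the library. Fold changes are differences of log2(RPKM + 1), which understates the change of low genes, with their standard errors (SE), and a member passed at a limma adjusted p under 0.05 over all genes tested. Of the 30 members, all were tested in the first experiment, 29 in the construct experiment and 27 in the macrophages. Scd1 never reached 1 RPKM outside 2 of the WT libraries at day 8, and Scd1, Elovl6 and Fads2 stayed under the limit of 1 RPKM in 2 libraries in the macrophages; Scd1 had at most 1.86 RPKM in any library. A member that passed this filter only through the group where it is high had to differ there. This holds for Scd1 in WT cells at day 8, for Fads2 in the construct experiment, where the 7 libraries at 1 RPKM or more were all construct libraries at day 0, and for Hsd17b7 in the macrophages, where the 4 such libraries were all untreated. In bulk RNA, fewer cells of a type and less RNA per cell cannot be told apart.

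The libraries held 0.218 to 122 M alignments, the next shallowest 15.6 M; the shallowest was untreated macrophage hWT library 1. Irf8 averaged 33.3 ± 0.850 RPKM in KO against 72.0 ± 2.57 in WT at day 0 (SD, n = 3 each), and 56.7 ± 14.7 RPKM in hWT against 21.9 ± 3.09 in mock at day 0 (SD, n = 3 each); values per gene do not tell a transcript with a deleted part from an intact one, or human from mouse reads, so they do not check the labels. Some libraries stood apart. In 4 libraries of the first experiment the level of a gene fell with its length (KO day 4 library 3, KO day 8 libraries 2 and 3 and WT day 4 library 3; r of -0.39 to -0.474 across genes). The 3 mock libraries at day 0 did so too (r of -0.304 to -0.422) and had the largest sums of RPKM of the second experiment, 512340 to 592527. In the mock libraries at day 8 the level of a gene also fell with its length (r of -0.302 and -0.214). In the hWT libraries at day 4 it rose with length (r of 0.32 to 0.357). The column names of all hWT libraries at day 4 begin with another prefix than those of the rest of the second experiment. Such prefixes are taken here to mark sequencing runs, which no label states. Run, in this sense, and group cannot be told apart there. Markers of adipocytes, the other cells known for high lipid synthesis, summed to at most 0.891 RPKM over 6 genes in any library.

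At day 0, with M-CSF alone, cholesterol and fatty acid synthesis genes were higher in KO than in WT cells. Of the 30 members, 16 were higher and 0 lower, against 40.2 percent of all genes called (26.5 percent higher and 13.7 percent lower), and the members' median log2 fold change was 0.62 against 0.12 for all genes. The higher members were 5 of 8 in the mevalonate branch, 6 of 10 from squalene to cholesterol, 4 of 8 in fatty acid synthesis, and Stard4. None of the 3 regulators passed. With only these groups in the fit, 25 members were higher and 2 lower. The share of all genes called in that smaller fit was not counted, so this count does not set the members apart.

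Fads2, the first desaturase in the making of long polyunsaturated fatty acids, had 9.601, 10.7 and 11.4 RPKM in KO libraries, against 1.37, 1.09 and 1.37 RPKM in WT libraries. Every KO library was far above every WT library (log2 fold change 2.35 ± 0.32 SE, limma adjusted p = 2.5e-05). Fads1, the next desaturase on that route, had 43.2, 44.5 and 42.4 RPKM in KO against 47.6, 46.8 and 47.7 RPKM in WT libraries. The KO values were the lower ones without overlap, but the difference did not pass (log2 fold change -0.13 ± 0.22 SE, limma adjusted p = 0.71). Sqle, the epoxidase that starts the sterol steps, had 33.9, 32.8 and 32.9 RPKM in KO against 10.99, 11.02 and 9.82 RPKM in WT libraries. The groups were well apart (log2 fold change 1.56 ± 0.18 SE, limma adjusted p = 5.2e-06). Fdps, which makes farnesyl diphosphate, had 52.2, 53.2 and 53.4 RPKM in KO against 15.4, 15.99 and 16.6 RPKM in WT libraries. Its KO libraries were also all above the WT libraries (log2 fold change 1.67 ± 0.25 SE, limma adjusted p = 6.2e-05); its exons share 1124 bases with the model Gm43738 on the same strand, so reads of the pair may be mixed. Hsd17b7, the sterol ketone reductase, had 7.71, 7.86 and 6.97 RPKM in KO against 1.62, 1.55 and 1.53 RPKM in WT libraries (log2 fold change 1.73 ± 0.25 SE, limma adjusted p = 4.3e-05). These groups too did not overlap. Among the others that rose were the thiolase Acat2 (1.495 ± 0.18), fatty acid synthase Fasn (1.33 ± 0.22), the elongase Elovl6 (1.23 ± 0.12) and the carboxylase Acaca (0.93 ± 0.21), all as log2 fold change ± SE. 

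**Figure D1:**
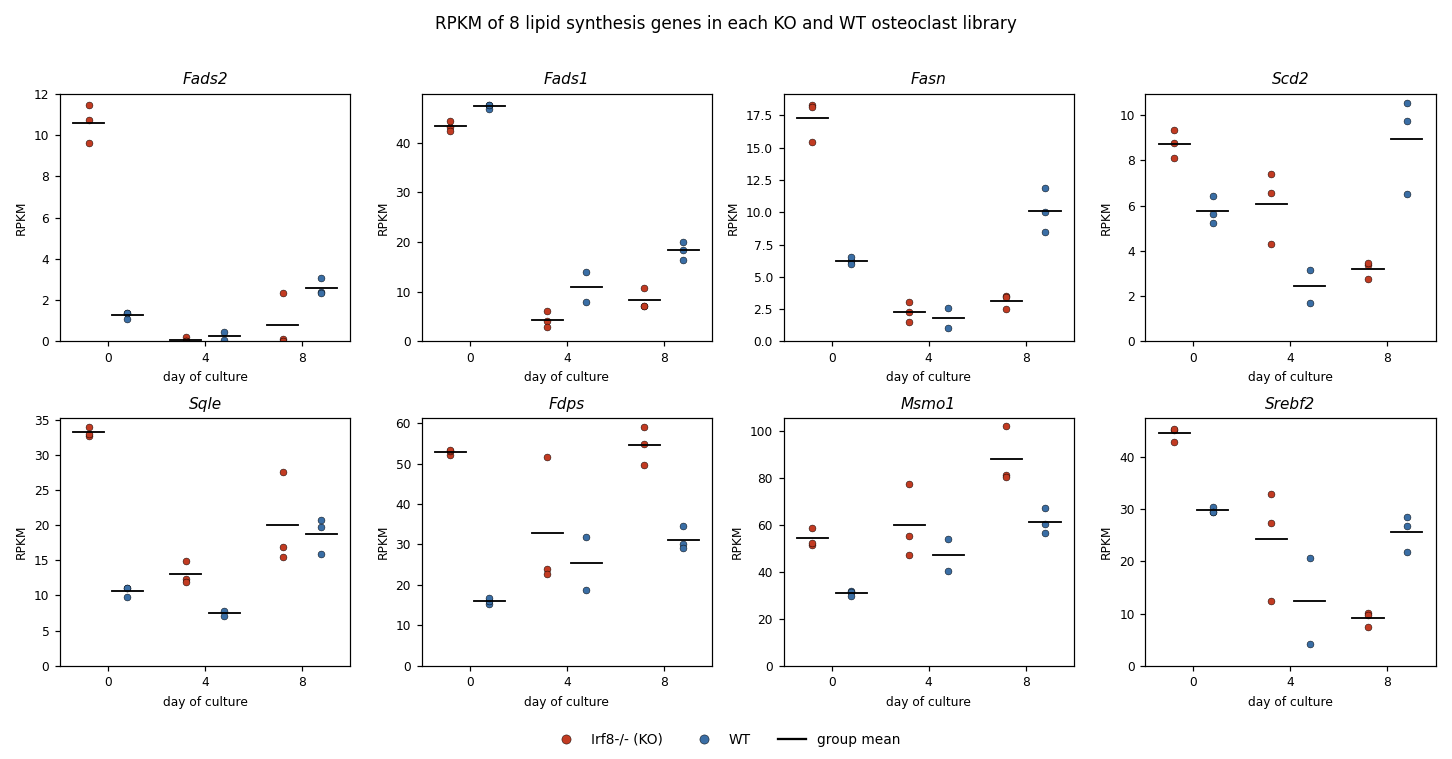
RPKM of 8 members in each KO and WT library (vertical axis, from 0) by day of culture (horizontal axis); points are libraries and bars group means. At day 0 the KO points of Fads2, Fasn, Scd2, Sqle, Fdps, Msmo1 and Srebf2 lie above the WT points, and at day 8 those of Fasn, Scd2, Fads1 and Srebf2 lie below them.

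The transcription factors showed smaller differences at day 0. Srebf2 had 42.95, 45.1 and 45.4 RPKM in KO against 30.5, 29.5 and 29.5 RPKM in WT libraries, without overlap, and did not pass (log2 fold change 0.56 ± 0.40 SE, limma adjusted p = 0.30). Srebf1 had 14.4, 16.6 and 15.9 RPKM in KO against 12.3, 12.02 and 12.7 RPKM in WT libraries (log2 fold change 0.32 ± 0.20 SE, limma adjusted p = 0.24). Insig1, which holds SREBP back and is itself an SREBP target, had 37.4, 37.2 and 37.98 RPKM in KO against 39.1, 36.96 and 35.6 RPKM in WT libraries. These groups overlapped (log2 fold change 0.01 ± 0.14 SE, limma adjusted p = 0.96). The summed level of 8 proliferation genes moved with the members: 449.1 to 467.7 RPKM in KO against 15.4 to 17.5 RPKM in WT libraries at day 0, all 8 higher in KO. The 8 markers of neutrophils and granulocyte precursors, of which 5 were tested with 4 higher and 1 lower, summed to 102.3 to 107.1 RPKM in KO against 39.95 to 45.5 RPKM in WT libraries. The 8 macrophage markers, with 0 higher and 4 lower, summed to 2042 to 2062 RPKM in KO against 3045 to 3122 RPKM in WT libraries. The part of these markers in the result was not tested. In the authors' deposited table, 27 of the 30 members had a q-value under 0.05 for KO and WT at day 0, 0 at day 4 and 11 at day 8. The share of all genes under that q-value was not counted, so these counts do not set the members apart.

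At day 4 Scd2, Idi1, Sqle and Sc5d were among the members higher in KO, and Fads1 was lower. Of 30 members 6 were higher and 1 lower in KO, against 13.4 percent of all genes called (3.06 percent higher and 10.3 percent lower), and the median log2 fold change was 0.29 against -0.09 for all genes. Scd2, a stearoyl-CoA desaturase, had 7.41, 6.55 and 4.31 RPKM in KO against 3.17 and 1.72 RPKM in WT libraries. The KO libraries were all higher (log2 fold change 1.05 ± 0.24 SE, limma adjusted p = 0.0067; 0.11 without WT day 4 library 3). Idi1, the isomerase of isopentenyl diphosphate, had 23.7, 23.9 and 30.6 RPKM in KO against 12.8 and 14.2 RPKM in WT libraries (log2 fold change 0.89 ± 0.20 SE, limma adjusted p = 0.0063). These groups did not overlap either. Fads1 was the member that fell, with 6.03, 4.19 and 2.96 RPKM in KO against 14.03 and 7.92 RPKM in WT libraries. Every KO library was lower (log2 fold change -1.14 ± 0.25 SE, limma adjusted p = 0.0051; 0.057 without WT day 4 library 1). Sqle (0.73 ± 0.20 SE) and Sc5d, the desaturase of the sterol ring (0.77 ± 0.23 SE), also rose. Their limma adjusted p-values were 0.026 and 0.037, but those of Sqle were 0.086 to 0.13 without KO day 4 library 1 or WT day 4 library 3 and those of Sc5d 0.10 to 0.45 without KO day 4 library 1 or 2 or WT day 4 library 3. Msmo1, the methyl sterol oxidase, had the highest level among members that did not pass, 55.3, 47.1 and 77.2 RPKM in KO against 40.4 and 54.02 RPKM in WT libraries. Its groups overlapped. The count of called members was 4 without KO library 1, 12 without KO library 3, 11 without WT library 1 and 3 without WT library 3. It was 12 without the 4 libraries that showed the length trend, and 0 when only these groups entered the limma fit, where 4 had an unadjusted p under 0.05. With median-of-ratios scaling, which moved the median of all genes by 0.125, 12 were higher and 1 lower at day 4; with the same scaling 12 were higher and 0 lower at day 0.

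At day 8 most fatty acid genes were lower in KO than in WT cells. The correlation of gene level with gene length was -0.105, -0.409 and -0.401 in KO against 0.063, 0.0321 and 0.0528 in WT libraries. What this trend contributes cannot be told apart from the genotype. Of 30 members 2 were higher and 9 lower in KO, against 31.2 percent of all genes called (8.62 percent higher and 22.6 percent lower), with a median of -0.28 against -0.18. In fatty acid synthesis 7 of 8 were lower, all but Acly, the lyase that supplies acetyl-CoA from citrate; they include Scd1, whose call was fixed by the filter, and without it 6 of 7 were lower. Fasn had 3.48, 3.46 and 2.51 RPKM in KO against 11.9, 10.01 and 8.44 RPKM in WT libraries. The lowest WT library was well above the highest KO library (log2 fold change -1.42 ± 0.22 SE, limma adjusted p = 0.00054). Scd2 had 3.38, 2.74 and 3.45 RPKM in KO against 10.5, 6.51 and 9.74 RPKM in WT libraries. It was likewise lower in every KO library (log2 fold change -1.22 ± 0.21 SE, limma adjusted p = 0.0012). Fads2 had 2.32, 0.114 and 0 RPKM in KO against 3.05, 2.38 and 2.33 RPKM in WT libraries. KO library 1 lay just under the lowest WT library, and the other KO libraries were near 0 (log2 fold change -1.21 ± 0.32 SE, limma adjusted p = 0.013; 0.052 to 0.058 without KO day 8 library 2 or 3 or WT day 8 library 1). Fads1 had 10.8, 7.18 and 7.04 RPKM in KO against 20.1, 18.4 and 16.5 RPKM in WT libraries (log2 fold change -1.07 ± 0.22 SE, limma adjusted p = 0.0036). Its groups did not overlap. Acaca (-0.79 ± 0.21) and Elovl6 (-0.37 ± 0.12) fell as well, on the log2 scale with SE. Scd1 had 0.279, 0.192 and 0.0681 RPKM in KO against 1.86, 0.412 and 1.56 RPKM in WT libraries, given as a description. 

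Srebf2 also fell at day 8, to 7.37, 10.1 and 9.73 RPKM in KO against 28.4, 26.7 and 21.8 RPKM in WT libraries. The groups were apart (log2 fold change -1.41 ± 0.40 SE, limma adjusted p = 0.018; 0.053 to 0.065 without WT day 8 library 1 or 2). Mevalonate and sterol members that rose were Fdps and Msmo1. Fdps had 59.1, 54.8 and 49.6 RPKM in KO against 30.04, 34.5 and 29.1 RPKM in WT libraries. Every KO library was higher (log2 fold change 0.79 ± 0.25 SE, limma adjusted p = 0.028; 0.051 to 0.085 without KO day 8 library 1 or 2 or WT day 8 library 1 or 2 or 3). Msmo1 had 102, 81.2 and 80.6 RPKM in KO against 56.5, 67.2 and 60.5 RPKM in WT libraries. It was higher in every KO library, but its call was lost without any 1 of the 6 libraries (log2 fold change 0.51 ± 0.18 SE, limma adjusted p = 0.042; 0.057 to 0.14 without 1 library). Insig1 had 50.4, 35.2 and 44.1 RPKM in KO against 33.1, 37.2 and 32.9 RPKM in WT libraries, and did not pass (log2 fold change 0.31 ± 0.14 SE, limma adjusted p = 0.095). Markers of stromal cells and osteoblasts, 8 genes, moved with these results: they summed to 2.56 to 13.3 RPKM in KO against 75.2 to 494.1 RPKM in WT libraries. In every WT library Acta2, Col1a1 and Col1a2 had the largest values of the list. Bglap was at 0 in every KO library and also in WT libraries 1 and 2. WT library 2 had the lowest of the WT sums and also the lowest WT levels of Scd1 (0.412 RPKM), Scd2 (6.51 RPKM) and Elovl6 (1.196 RPKM). Its Fasn (10.01 RPKM), Acaca (3.71 RPKM), Fads1 (18.4 RPKM) and Fads2 (2.38 RPKM) lay between the other WT libraries. The proliferation sum was 128.6 to 153.5 RPKM in KO against 212.9 to 242.1 RPKM in WT libraries. The part of these markers in the results was not tested. The count of 11 called members was 7 without KO library 3, 4 without WT library 1, and 7 without WT library 2 or 3. Without the 4 libraries of the length trend, which leaves 1 KO library, 9 were higher and 14 lower.

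**Figure D2:**
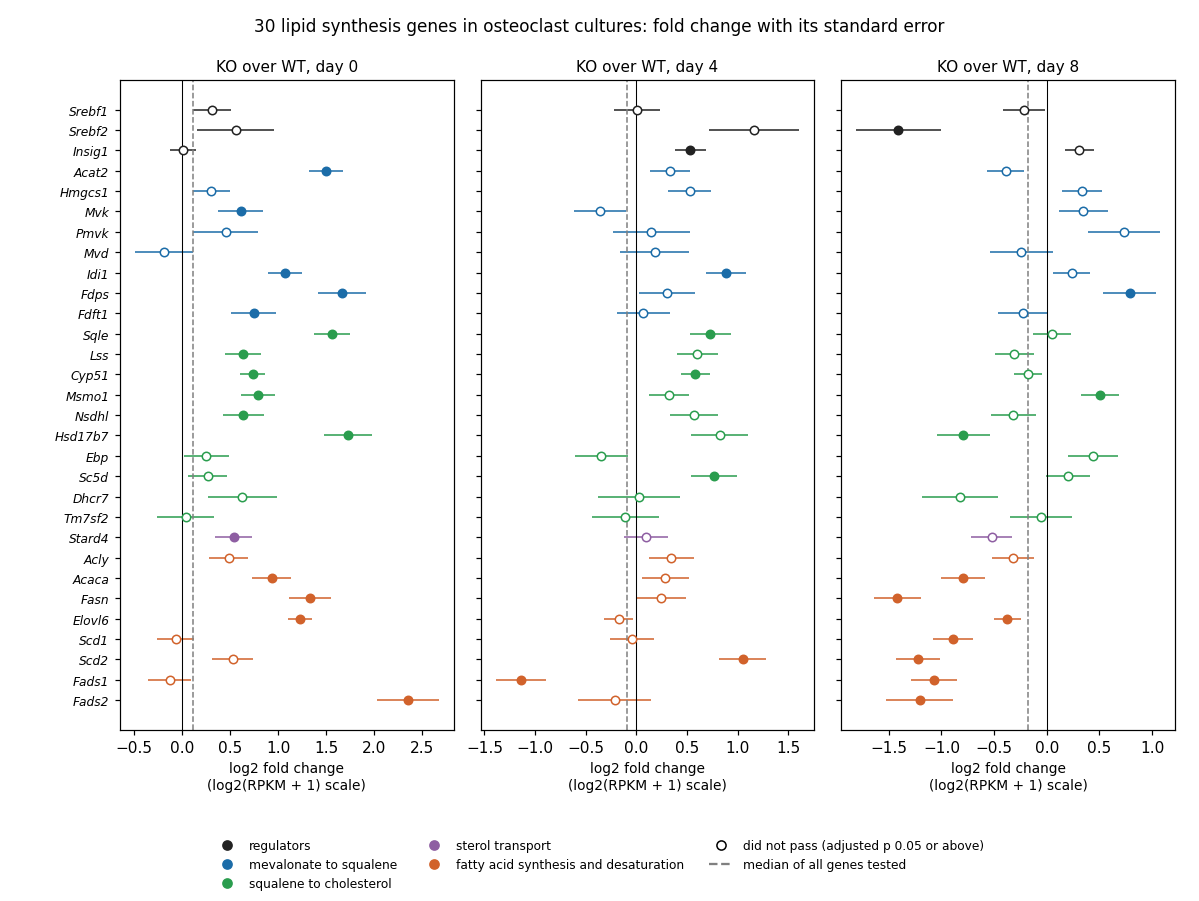
Log2 fold change of KO over WT (horizontal axis, log2(RPKM + 1) scale) for the 30 members (vertical axis) at days 0, 4 and 8; points are fold changes with bars of 1 SE, filled where the member passed, and the dashed line is the median of all genes. At day 0 most members lie right of the dashed line, and at day 8 7 of the 8 fatty acid genes are filled and left of 0, among them Scd1, whose call was fixed by the filter.

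In KO cells several fatty acid genes were far lower at day 4 than at day 0, while the share of members called was near that of all genes. In KO cells, 1 member was higher and 14 lower at day 4 than at day 0, against 57.9 percent of all genes called (13.6 percent higher and 44.2 percent lower), and the median was -0.60 against -0.43 for all genes. Fads2 had 0.218, 0 and 0.0201 RPKM at day 4 against 9.601, 10.7 and 11.4 RPKM at day 0. It was close to absent at day 4 (log2 fold change -3.43 ± 0.32 SE, limma adjusted p = 2.9e-07). Fads1 had 6.03, 4.19 and 2.96 RPKM at day 4 against 43.2, 44.5 and 42.4 RPKM at day 0 (log2 fold change -3.08 ± 0.22 SE, limma adjusted p = 1.5e-08), and Fasn had 3.08, 2.25 and 1.49 RPKM against 15.4, 18.3 and 18.2 RPKM (log2 fold change -2.51 ± 0.22 SE, limma adjusted p = 1.4e-07). Neither overlapped between days. Elovl6, which lengthens palmitate, fell (log2 fold change -1.97 ± 0.12 SE). Insig1 rose, with 55.6, 51.3 and 54.04 RPKM at day 4 against 37.4, 37.2 and 37.98 RPKM at day 0 (log2 fold change 0.50 ± 0.14 SE, limma adjusted p = 0.0055). With median-of-ratios scaling, which moved the median of all genes by 0.423, 3 members were higher and 9 lower. The proliferation sum was 9.23 to 19.4 RPKM at day 4 against 449.1 to 467.7 RPKM at day 0 in KO cells, and the neutrophil sum 3.52 to 10.6 RPKM at day 4 against 102.3 to 107.1 RPKM at day 0; the part of either in the result was not tested.

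In WT cells, 1 member was higher and 8 lower at day 4 than at day 0, against 43.2 percent of all genes called (17.6 percent higher and 25.6 percent lower). Fads1 had 14.03 and 7.92 RPKM at day 4 against 47.6, 46.8 and 47.7 RPKM at day 0. Both day 4 libraries were lower (log2 fold change -2.06 ± 0.25 SE, limma adjusted p = 1.7e-05). Stard4 fell with 2.72 and 2.07 RPKM at day 4 against 7.003, 7.501 and 6.78 RPKM at day 0 (log2 fold change -1.26 ± 0.22 SE, limma adjusted p = 0.00041), and Fasn with 2.596 and 1.03 RPKM against 6.21, 5.998 and 6.54 RPKM (log2 fold change -1.42 ± 0.25 SE, limma adjusted p = 0.00042). Srebf2 had 20.7 and 4.08 RPKM at day 4, a wide spread, against 30.5, 29.5 and 29.5 RPKM at day 0 (log2 fold change -1.56 ± 0.45 SE, limma adjusted p = 0.013; 0.38 without WT day 4 library 3). Msmo1, the member that rose, had 40.4 and 54.02 RPKM at day 4 against 31.7, 31.3 and 29.6 RPKM at day 0 (log2 fold change 0.58 ± 0.20 SE, limma adjusted p = 0.028; 0.056 to 0.31 without WT day 0 library 1 or 2 or 3 or WT day 4 library 3). Without WT day 4 library 1 the count of called members was 16, and without library 3 it was 5; it was 14 without the 4 libraries of the length trend.

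Most fatty acid genes of WT cells were higher at day 8 than at day 4. At day 8, 14 members were higher and 0 lower than at day 4, among them 7 of 8 fatty acid genes or, without Scd1, 6 of 7, against 23 percent of all genes called (16.2 percent higher and 6.79 percent lower). The members' median was 0.67 against 0.16 for all genes. Fasn had 11.9, 10.01 and 8.44 RPKM at day 8 against 2.596 and 1.03 RPKM at day 4 (log2 fold change 2.03 ± 0.25 SE, limma adjusted p = 2.2e-05), and Scd2 had 10.5, 6.51 and 9.74 RPKM against 3.17 and 1.72 RPKM (log2 fold change 1.54 ± 0.24 SE, limma adjusted p = 0.00020). Both were higher in every day 8 library. Hsd17b7 (1.48 ± 0.28 SE) and Fads2 (1.52 ± 0.36 SE) rose too, and for Fads2 the adjusted p was 0.0058, or 0.077 without WT day 4 library 3. The stromal sum was 75.2 to 494.1 RPKM at day 8 against 8.09 to 14.1 RPKM at day 4, and its part was not tested. Without WT day 4 library 3 the count of called members was 8, and 7 with only these groups in the fit. In KO cells, 7 members were higher and 2 lower at day 8 than at day 4, against 31.6 percent of all genes called (22.6 percent higher and 9 percent lower). Elovl6 had 1.003, 1.09 and 0.8999 RPKM at day 8 against 0.288, 0.202 and 0.282 RPKM at day 4 (log2 fold change 0.67 ± 0.12 SE, limma adjusted p = 0.0011), and Fads1 had 10.8, 7.18 and 7.04 RPKM against 6.03, 4.19 and 2.96 RPKM (log2 fold change 0.81 ± 0.22 SE, limma adjusted p = 0.013). Fdps (0.82 ± 0.25), the kinase Mvk (0.71 ± 0.23), Srebf2 (-1.23 ± 0.40) and Scd2 (-0.74 ± 0.21) passed as well, but each lost its call without 1 or another of at least 3 libraries, at adjusted p-values of 0.051 to 0.17. That KO count was 3 without KO day 4 library 1, 2 without KO day 4 library 2 and 5 without KO day 8 library 2; it was 22, 13 higher and 9 lower, without the 4 libraries of the length trend and 1 with only these groups in the fit. Scaling gave 2 higher and 6 lower. Set directly against day 0, day 8 had 9 members higher, Scd1 among them, and 2 lower in WT cells, against 52.7 percent of all genes called (29.3 percent higher and 23.4 percent lower), and 1 higher and 17 lower in KO cells, against 59.2 percent (18.3 higher and 41 lower).

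The change from day 0 to day 4 differed between KO and WT for 7 members, all more negative in KO, against 27.6 percent of all genes called (5.85 percent higher and 21.7 percent lower). Fads2 changed by -2.56 ± 0.48 more on the log2 scale (SE, limma adjusted p = 0.00092), Elovl6 by -1.41 ± 0.19 (adjusted p = 4.4e-05), Acat2 by -1.17 ± 0.26 (adjusted p = 0.0035) and Fdps by -1.37 ± 0.37 (adjusted p = 0.013). With median-of-ratios scaling, which moved the median of all genes by 0.299, Acat2 had an adjusted p of 0.056 and Fdps of 0.12, and the counts were 3 more positive and 2 more negative. Without WT day 4 library 3, Fdps had an adjusted p of 0.08. The count was 4 without KO day 0 library 2 or 3 or WT day 0 library 2, and 17 without the 4 libraries of the length trend.

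In the second experiment the members differed most between a construct and mock at day 0. With hWT, 19 of 29 members were higher and 7 lower than with mock, against 74.7 percent of all genes called (48.1 percent higher and 26.6 percent lower). With hG388S the counts were 19 and 5 against 73.1 percent (49.3 higher and 23.8 lower), and with h379_389 18 and 5 against 73.2 percent (49.6 higher and 23.6 lower). The members' medians were 0.66, 0.65 and 0.60 against 0.24, 0.28 and 0.27 for all genes, in that order of constructs. The 3 comparisons share the mock libraries of day 0, which showed the length trend and had the largest sums of RPKM of this experiment. What this contributes cannot be told apart from the constructs. Of the 7 fatty acid genes tested, 7 were higher with hWT and 6 with each altered construct. Without Fads2, whose call was fixed by the filter, these counts were 6 of 6 and 5 of 6. Of 8 genes in the mevalonate branch, 2 were higher and 5 lower with hWT, 3 and 3 with hG388S, and 2 and 3 with h379_389.

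Scd2 at day 0 had 16.4, 20.05 and 19.8 RPKM with hWT, 16.6, 21.7 and 23.2 RPKM with hG388S and 20.2, 22.05 and 23.5 RPKM with h379_389, against 2.61, 3.496 and 3.61 RPKM with mock. Every library with a construct was several times above every mock library. The log2 fold changes over mock were 2.22 ± 0.11, 2.34 ± 0.11 and 2.44 ± 0.11 (SE), with limma adjusted p-values of 4.7e-15, 2.1e-15 and 9.4e-16. Srebf2 had 14.1, 10.7 and 20.1 RPKM with hWT, 16.96, 19.1 and 19.5 RPKM with hG388S and 16.5, 17.3 and 13.6 RPKM with h379_389, against 3.36, 4.005 and 1.74 RPKM with mock. Again no construct library reached down to the mock libraries (log2 fold change with hWT 1.99 ± 0.17 SE, limma adjusted p = 1.6e-10). Fasn (1.63 ± 0.18) and Acaca (1.46 ± 0.11) rose with hWT, and both also with hG388S (1.78 ± 0.18 and 1.29 ± 0.11). Fasn (1.55 ± 0.18) and Hsd17b7 (1.22 ± 0.12) were among the members that rose with h379_389. Mean Acaca was 5.55, 4.82 and 4.38 RPKM with hWT, hG388S and h379_389, against 1.385 RPKM with mock. In the same order, mean Hsd17b7 was 2.82, 2.14 and 2.42 RPKM, against 0.483 RPKM with mock. 

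Other members were lower with the constructs at day 0. Ebp, the sterol isomerase, had 18.3, 12.1 and 19.5 RPKM with hWT against 37.2, 29.4 and 30.5 RPKM with mock (log2 fold change -0.94 ± 0.14 SE, limma adjusted p = 1.6e-06). Pmvk, phosphomevalonate kinase, had 4.36, 3.405 and 5.64 RPKM with hWT against 8.63, 8.34 and 7.23 RPKM with mock (log2 fold change -0.75 ± 0.12 SE, limma adjusted p = 5.6e-06). Neither gene's groups overlapped. Tm7sf2, a sterol reductase, fell with hWT (log2 fold change -1.27 ± 0.16 SE), and its exons share 532 bases with Vps51 on the same strand. The altered constructs gave log2 fold changes of -0.78 and -0.85 for Ebp, -0.68 and -0.64 for Pmvk, and -0.81 and -0.78 for Tm7sf2, all past the test. Fdft1, squalene synthase, fell with both altered constructs (-0.43 ± 0.11 and -0.52 ± 0.11), and its exons share 774 bases with Ctsb on the opposite strand. Its mean was 3.34 RPKM with hWT, 3.65 RPKM with hG388S and 3.40 RPKM with h379_389, against 5.29 RPKM with mock. Mvk was called with hWT (-0.55 ± 0.18, adjusted p = 0.0064; 0.051 to 0.11 without hWT day 0 library 2 or mock day 0 library 2). Msmo1 had 22.6, 20.9 and 19.4 RPKM with hWT against 27.3, 25.5 and 16.3 RPKM with mock, and did not pass. With median-of-ratios scaling, which moved the median of all genes by -0.229 for hWT, 15 members were higher and 8 lower with hWT, and 16 and 8 with h379_389. Against hWT itself at day 0, 0 of 29 members passed with hG388S or with h379_389, where 0.765 and 0.0176 percent of all genes were called. At an unadjusted p under 0.05 in limma, 7 members with hG388S and 2 with h379_389 were counted. The proliferation sum was 220.8 to 298.5 RPKM over the construct libraries against 120.2 to 130.8 RPKM in mock. The neutrophil sum was 139.2 to 264.3 RPKM over the construct libraries against 461.4 to 724.9 RPKM in mock, with 8, 7 and 8 of its 8 genes lower with hWT, hG388S and h379_389. The part of either was not tested.

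**Figure D3:**
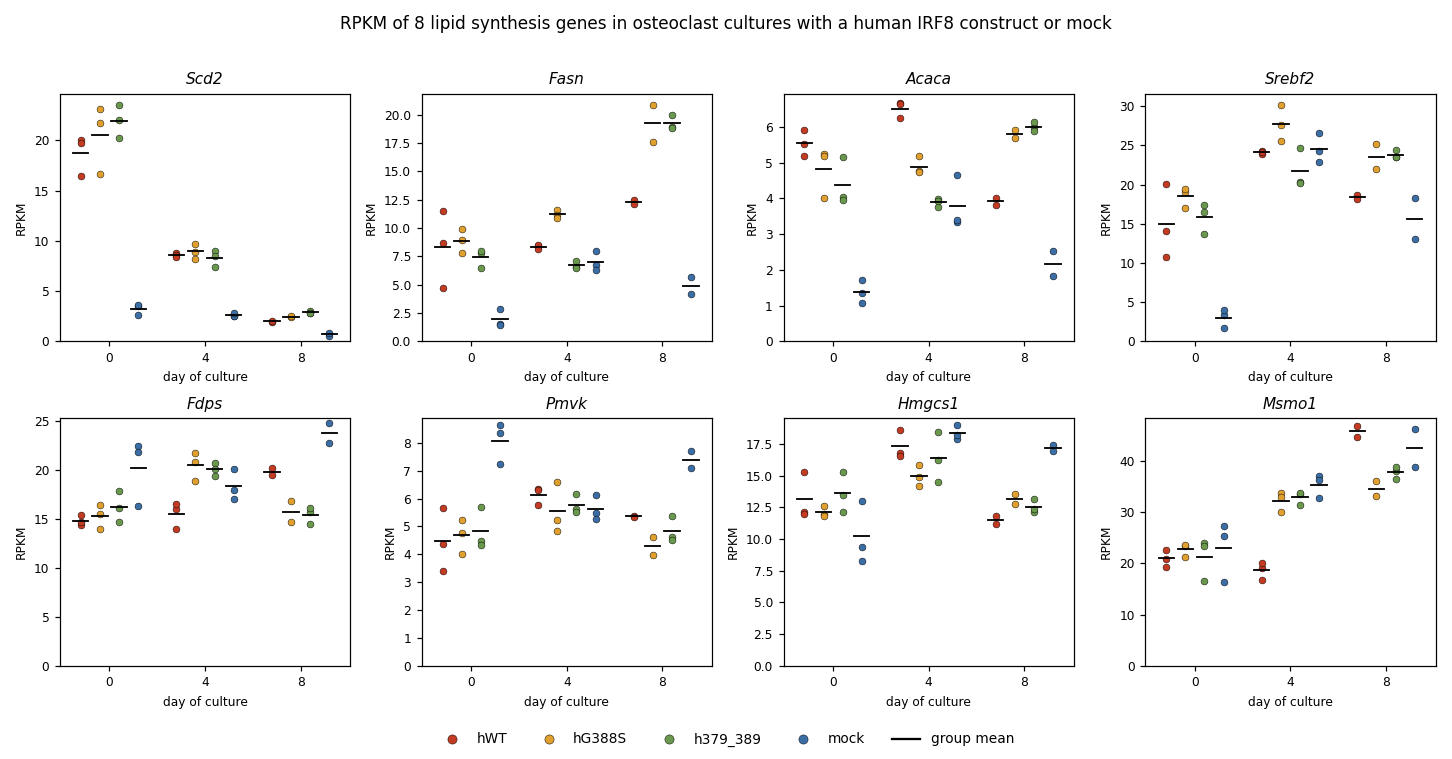
RPKM of 8 members (vertical axis, from 0) in each library of the second experiment by day of culture (horizontal axis), for hWT, hG388S, h379_389 and mock; points are libraries and bars group means. Scd2 is higher with each construct than with mock on all 3 days, and mock Srebf2 is below the constructs at day 0 but among them at day 4.

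At day 4, 3 members were higher and 6 lower with hWT than with mock, against 47.5 percent of all genes called (23.8 percent higher and 23.7 percent lower), 4 and 0 with hG388S against 26.3 percent (13.6 higher and 12.7 lower), and 1 and 0 with h379_389 against 30 percent (13.3 higher and 16.7 lower). Scd2 rose in all 3 comparisons. It had 8.84, 8.55 and 8.39 RPKM with hWT, 9.702, 8.89 and 8.23 RPKM with hG388S and 8.95, 8.47 and 7.41 RPKM with h379_389, against 2.52, 2.49 and 2.82 RPKM with mock. No construct library overlapped a mock library (log2 fold changes 1.41 ± 0.11, 1.46 ± 0.11 and 1.36 ± 0.11 SE). Msmo1 fell with hWT, with 16.8, 19.2 and 20.1 RPKM against 37.1, 36.2 and 32.8 RPKM with mock (log2 fold change -0.89 ± 0.13 SE, limma adjusted p = 6.4e-06). Acaca rose with hWT, with 6.25, 6.66 and 6.63 RPKM against 3.35, 3.396 and 4.67 RPKM with mock (log2 fold change 0.66 ± 0.11 SE, limma adjusted p = 3.1e-05). Both hWT results rest on libraries of another run. In those hWT libraries the level of a gene rose with its length (r of 0.32 to 0.357), against r of -0.0449 to 0.168 with mock. What this trend contributes cannot be told apart from the construct. Tm7sf2 (-0.69) and Sc5d (-0.44) fell with hWT as well. Against hWT, 6 members were higher and 1 lower with hG388S and 3 and 2 with h379_389, where 27.7 and 32.2 percent of all genes were called. Msmo1 led with a log2 fold change of 0.76 ± 0.13 for hG388S and 0.79 ± 0.13 for h379_389 (SE). Fasn rose with hG388S (0.62 ± 0.18, adjusted p = 0.013; 0.060 without mock day 4 library 2). The hG388S count was 2 without hG388S library 1 or 3 or mock library 1, and 1 without mock library 2.

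At day 8 4 to 6 of 7 fatty acid genes were higher with a construct than with mock, and 3 or 4 of 8 mevalonate genes lower. With hWT, 4 members were higher and 3 lower than with mock, against 30.6 percent of all genes called (14.6 percent higher and 16 percent lower); with hG388S 9 and 4 against 45 percent (24.4 higher and 20.6 lower); and with h379_389 10 and 5 against 50 percent (25.4 higher and 24.6 lower). With median-of-ratios scaling, a pseudocount of 0.1 or no filter the hWT counts were 4 higher and 1 lower. Of 7 fatty acid genes 4, 6 and 6 were higher, and of 8 mevalonate genes 3, 4 and 4 lower. Fasn had 12.4 and 12.1 RPKM with hWT, 17.6 and 20.9 RPKM with hG388S and 18.9, 19.9 and 18.8 RPKM with h379_389, against 4.16 and 5.69 RPKM with mock. No construct library came near the mock libraries (log2 fold changes 1.17 ± 0.23, 1.78 ± 0.23 and 1.78 ± 0.21 SE; limma adjusted p = 0.00022, 4.9e-07 and 8.7e-08). Acaca had 4.02 and 3.82 RPKM with hWT, 5.91 and 5.697 RPKM with hG388S and 5.99, 6.14 and 5.88 RPKM with h379_389, against 1.82 and 2.53 RPKM with mock. It too was higher in each construct library (0.64 ± 0.14, 1.11 ± 0.14 and 1.15 ± 0.12). Scd2 was higher by 0.83, 1.04 and 1.198, and Elovl6 by 0.54, 0.63 and 0.61. Among the lower members, Hmgcs1, the synthase that opens the mevalonate branch, had 11.9 and 11.2 RPKM with hWT against 16.97 and 17.5 RPKM with mock (log2 fold change -0.54 ± 0.14 SE, limma adjusted p = 0.0038). Its hWT libraries were both lower. Pmvk had 4.63 and 3.96 RPKM with hG388S against 7.703 and 7.09 RPKM with mock (log2 fold change -0.67 ± 0.15 SE, limma adjusted p = 0.00073). Fdps fell with hG388S (-0.57 ± 0.12) and h379_389 (-0.59 ± 0.11). Mvd, the decarboxylase, fell as well, with log2 fold changes of -0.44, -0.40 and -0.46, but in each comparison the call was lost without at least 1 library. The hG388S count of 13 was 7 without hG388S library 2 and 6 without mock library 1. The proliferation sum was 436.9 to 461 RPKM over the construct libraries against 271.6 to 301.8 RPKM in mock. Gene level fell with gene length in the mock libraries at day 8 (r of -0.302 and -0.214) and less so with hWT (-0.125 and -0.164). It rose with length with hG388S (0.14 and 0.173) and h379_389 (0.125 to 0.2). What this trend contributes cannot be told apart from the constructs.

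In mock cells 19 of 29 members were higher and 4 lower at day 4 than at day 0, against 73.5 percent of all genes called (50.9 percent higher and 22.6 percent lower). Srebf2 had 24.3, 22.9 and 26.5 RPKM at day 4 against 3.36, 4.005 and 1.74 RPKM at day 0. The days were far apart (log2 fold change 2.71 ± 0.17 SE, limma adjusted p = 4.0e-13). Insig1 had 22.9, 23.5 and 21.1 RPKM at day 4 against 9.17, 8.35 and 9.29 RPKM at day 0 (log2 fold change 1.24 ± 0.09 SE, limma adjusted p = 9.1e-12). Fasn (1.47 ± 0.18) and Hsd17b7 (1.42 ± 0.12) rose, and Ebp (-0.65 ± 0.14) fell. KO cells of the first experiment had 1 member higher and 14 lower over the same days; the experiments were separate, and this difference was not tested. The neutrophil sum of mock cells was 10.5 to 12.3 RPKM at day 4 against 461.4 to 724.9 RPKM at day 0, and its part was not tested. At day 0 the mock libraries showed the length trend (r of -0.304 to -0.422), while r was -0.0449 to 0.168 at day 4. They also had the largest sums of RPKM of this experiment at day 0. What this contributes cannot be told apart from the change over time. With scaling, which moved the median of all genes by -0.29, 15 were higher and 8 lower. Between days 4 and 8, 2 members were higher and 6 lower at day 8, against 32 percent of all genes called (14.7 percent higher and 17.2 percent lower). Scd2 had 0.531 and 0.866 RPKM at day 8 against 2.52, 2.49 and 2.82 RPKM at day 4 (log2 fold change -1.09 ± 0.12 SE, limma adjusted p = 7.3e-07). Both day 8 libraries were lower. That count was 5 without mock day 4 library 2 or mock day 8 library 2, 3 without mock day 4 library 3 and 1 without mock day 8 library 1. The mock libraries at day 8 showed the length trend too (r of -0.302 and -0.214), and with that trend subtracted the count was 3.

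The change from day 0 to day 4 differed between hWT and mock in 22 members, 4 more positive and 18 more negative with hWT, against 60 percent of all genes called (17.8 percent higher and 42.1 percent lower). Srebf2 differed by -2.01 ± 0.25 (SE, limma adjusted p = 2.3e-07) and Fasn by -1.39 ± 0.26 (adjusted p = 6.4e-05). Within hWT, Srebf2 had 24.2, 23.9 and 24.2 RPKM at day 4 against 14.1, 10.7 and 20.1 RPKM at day 0, a smaller difference than in mock. With scaling, which moved the median of all genes by 0.23, 7 were more positive and 15 more negative.

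In macrophages, most members were lower with IFNg. Of 27 tested, 1 was higher and 18 lower with IFNg than untreated over the 4 kinds of cell, against 71.9 percent of all genes called (22.3 percent higher and 49.6 percent lower), and the median was -0.45 against -0.17. All 3 regulators, 6 of 8 mevalonate genes and 5 of 10 sterol genes were lower. The 10 sterol genes, and so the counts of this paragraph, include Hsd17b7. It passed the filter only through untreated libraries, so a call of it here would be fixed by the filter. Values below are the lowest, the median and the highest of 8 libraries per treatment. Sqle had 1.21, 1.47 and 1.66 RPKM with IFNg against 2.86, 4.49 and 6.02 RPKM untreated (log2 fold change -1.14 ± 0.08 SE, limma adjusted p = 1.1e-11). Fdps had 5.87, 7.02 and 7.66 RPKM with IFNg against 11.9, 13.7 and 24.6 RPKM untreated (log2 fold change -0.99 ± 0.09 SE, limma adjusted p = 2.8e-10). Stard4 had 0.666, 1.15 and 1.44 RPKM with IFNg against 1.89, 3.09 and 3.66 RPKM untreated (log2 fold change -0.90 ± 0.07 SE, limma adjusted p = 1.7e-11). For each of these 3 genes the highest IFNg library lay below the lowest untreated library. Cyp51, the demethylase of lanosterol, fell (log2 fold change -0.88 ± 0.13 SE); its exons share 166 bases with Akap9 on the opposite strand. Nsdhl, the sterol decarboxylase, was the member that rose (log2 fold change 0.23 ± 0.09 SE, limma adjusted p = 0.028), but its adjusted p was 0.052 to 0.10 when 1 or another of 8 libraries was left out, 0.10 without the shallowest, hWT untreated library 1. Acly did not pass (log2 fold change -0.06 ± 0.05 SE, limma adjusted p = 0.27); with median-of-ratios scaling, which moved the median of all genes by 0.166, it was 0.14 (adjusted p = 0.019), and the counts were 4 higher and 16 lower. Within the run that holds untreated and IFNg libraries of mock, hWT and hG388S, 1 member was higher and 17 lower, against 22.7 and 46.7 percent of all genes. By kind of cell, 15, 13, 16 and 15 members were lower and 1, 3, 0 and 0 higher in mock, hWT, hG388S and h379_389, where 63.2, 51, 42.7 and 41.7 percent of all genes were called. Stromal markers summed to 14.6 to 115 RPKM in untreated against at most 4.93 RPKM in IFNg libraries, and their part was not tested.

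With LPS added to IFNg, a few members were higher at 1 h and most were lower by 4 h, as were most of all genes tested at 4 h. At 1 h, 5 members were higher and 13 lower than with IFNg alone, against 60.1 percent of all genes called (11.2 percent higher and 48.9 percent lower), with a median of -0.16 against -0.19 for all genes. Insig1 had 35.5, 36.8 and 46.4 RPKM at 1 h against 11.6, 12.8 and 13.8 RPKM with IFNg, as lowest, median and highest of 8 libraries. The lowest library at 1 h was more than double the highest with IFNg (log2 fold change 1.52 ± 0.10 SE, limma adjusted p = 1.9e-12). Idi1 had 3.19, 4.12 and 4.67 RPKM at 1 h against 1.59, 1.76 and 2.02 RPKM with IFNg (log2 fold change 0.86 ± 0.09 SE, limma adjusted p = 3.3e-08). Hmgcs1 had 8.203, 9.63 and 11.3 RPKM at 1 h against 6.44, 7.72 and 8.41 RPKM with IFNg (log2 fold change 0.29 ± 0.06 SE, limma adjusted p = 0.00039). Idi1 did not overlap between treatments, and Hmgcs1 did at its edges. Among the members that fell were Msmo1 (-0.44 ± 0.06), Fads1 (-0.42 ± 0.06) and Mvd (-0.42 ± 0.08). Dhcr7, the last reductase before cholesterol, was also called (-0.42 ± 0.09), with an adjusted p of 0.081 under median-of-ratios scaling. That scaling moved the median of all genes by 0.206 and gave 6 members higher and 4 lower. Stard4 was called (log2 fold change 0.16 ± 0.07 SE, limma adjusted p = 0.039), but not without 1 or another of several single libraries, h379_389 IFNg library 2 among them (0.067).

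At 4 h, 2 members were higher and 23 lower, against 89.2 percent of all genes called (15.3 percent higher and 73.9 percent lower), and the median was -0.96 against -0.74 for all genes. Fads1 had 0.861, 1.298 and 1.58 RPKM at 4 h against 9.53, 21.5 and 22.8 RPKM with IFNg. Every library at 4 h was far below every IFNg library (log2 fold change -3.08 ± 0.06 SE, limma adjusted p = 2.8e-23). Dhcr7 had 0.621, 0.937 and 1.16 RPKM at 4 h against 4.57, 9.46 and 9.81 RPKM with IFNg (log2 fold change -2.23 ± 0.09 SE, limma adjusted p = 6.3e-17). Scd2 had 0.0442, 0.142 and 0.201 RPKM at 4 h against 1.72, 4.19 and 5.31 RPKM with IFNg (log2 fold change -2.05 ± 0.10 SE, limma adjusted p = 1.6e-15). Mvk had 0.591, 0.723 and 1.07 RPKM at 4 h against 4.63, 5.43 and 6.28 RPKM with IFNg (log2 fold change -1.84 ± 0.07 SE, limma adjusted p = 8.0e-18). None of these 4 genes overlapped between treatments. The exceptions were Insig1, with 16.3, 17.2 and 20.96 RPKM at 4 h (log2 fold change 0.44 ± 0.10 SE, limma adjusted p = 0.00017), and Idi1, with 2.33, 3.31 and 3.94 RPKM (log2 fold change 0.58 ± 0.09 SE, limma adjusted p = 4.1e-06). Both stayed above IFNg alone in every library. Cyp51 and Acat2 did not pass. With median-of-ratios scaling, which moved the median of all genes by 0.738, 9 members were higher and 15 lower, and Cyp51 turned to 0.69 on the log2 scale; Fads1, Dhcr7, Scd2 and Mvk kept their direction and their call. Within the run that holds both times in mock cells, 0 members were higher and 22 lower at 4 h than at 1 h, against 12.6 and 57.8 percent of all genes.

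At 8 h, 5 members were higher and 20 lower than with IFNg alone, against 85.2 percent of all genes called (19.2 percent higher and 66 percent lower), with a median of -0.56 against -0.48. Fads1 had 0.455, 0.743 and 0.908 RPKM at 8 h (log2 fold change -3.48 ± 0.06 SE, limma adjusted p = 4.2e-24) and Dhcr7 0.317, 0.404 and 0.574 RPKM (log2 fold change -2.65 ± 0.09 SE, limma adjusted p = 2.8e-18). Both were lowest at this time. Acat2 had 1.896, 2.89 and 3.25 RPKM at 8 h against 0.998, 1.28 and 2.01 RPKM with IFNg (log2 fold change 0.69 ± 0.15 SE, limma adjusted p = 0.00015). Sc5d had 4.75, 5.26 and 5.81 RPKM at 8 h against 3.26, 3.63 and 4.25 RPKM with IFNg (log2 fold change 0.42 ± 0.12 SE, limma adjusted p = 0.0021). Fdft1 had 2.01, 2.62 and 3.06 RPKM at 8 h against 1.43, 1.71 and 1.995 RPKM with IFNg (log2 fold change 0.39 ± 0.06 SE, limma adjusted p = 4.8e-07). Sc5d and Fdft1 were higher in every 8 h library, while Acat2 overlapped at its edges. With median-of-ratios scaling, which moved the median of all genes by 0.468, 10 were higher and 12 lower, and Hmgcs1, not called here, was 0.58. Within the run that holds both times for the 3 constructs, 17 members were higher and 4 lower at 8 h than at 4 h, against 48.9 and 15.1 percent of all genes, and Mvd had the highest value, 1.49 on the log2 scale. The proliferation sum was 17.01 to 28.96 RPKM with IFNg, 23.7 to 48.5 RPKM at 1 h of LPS, 10.9 to 19.3 RPKM at 4 h and 6.83 to 10.4 RPKM at 8 h, and its part was not tested. Runs changed with time in most of these comparisons: within the run that holds h379_389 cells with IFNg and at 1 h of LPS, 3 members were higher and 8 lower at 1 h, against 8.61 and 28.9 percent of all genes.

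**Figure D4:**
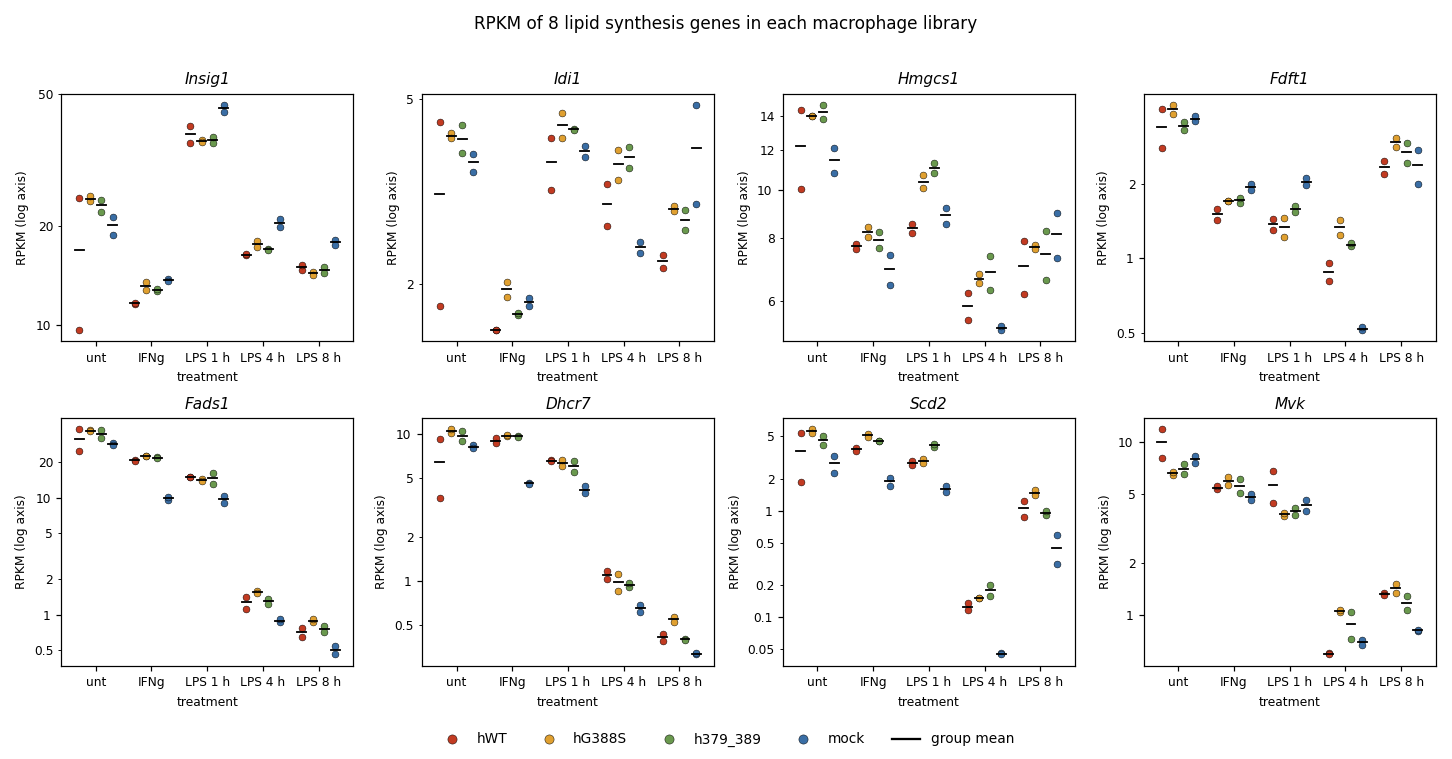
RPKM of 8 members (vertical axis, log scale) in each macrophage library by treatment (horizontal axis: untreated, IFNg, then IFNg with LPS for 1, 4 and 8 h); points are libraries and bars group means. Insig1 peaks at 1 h of LPS, and Fads1, Dhcr7, Scd2 and Mvk are far lower at 4 and 8 h than at 1 h in all 4 kinds of cell.

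**Figure D5:**
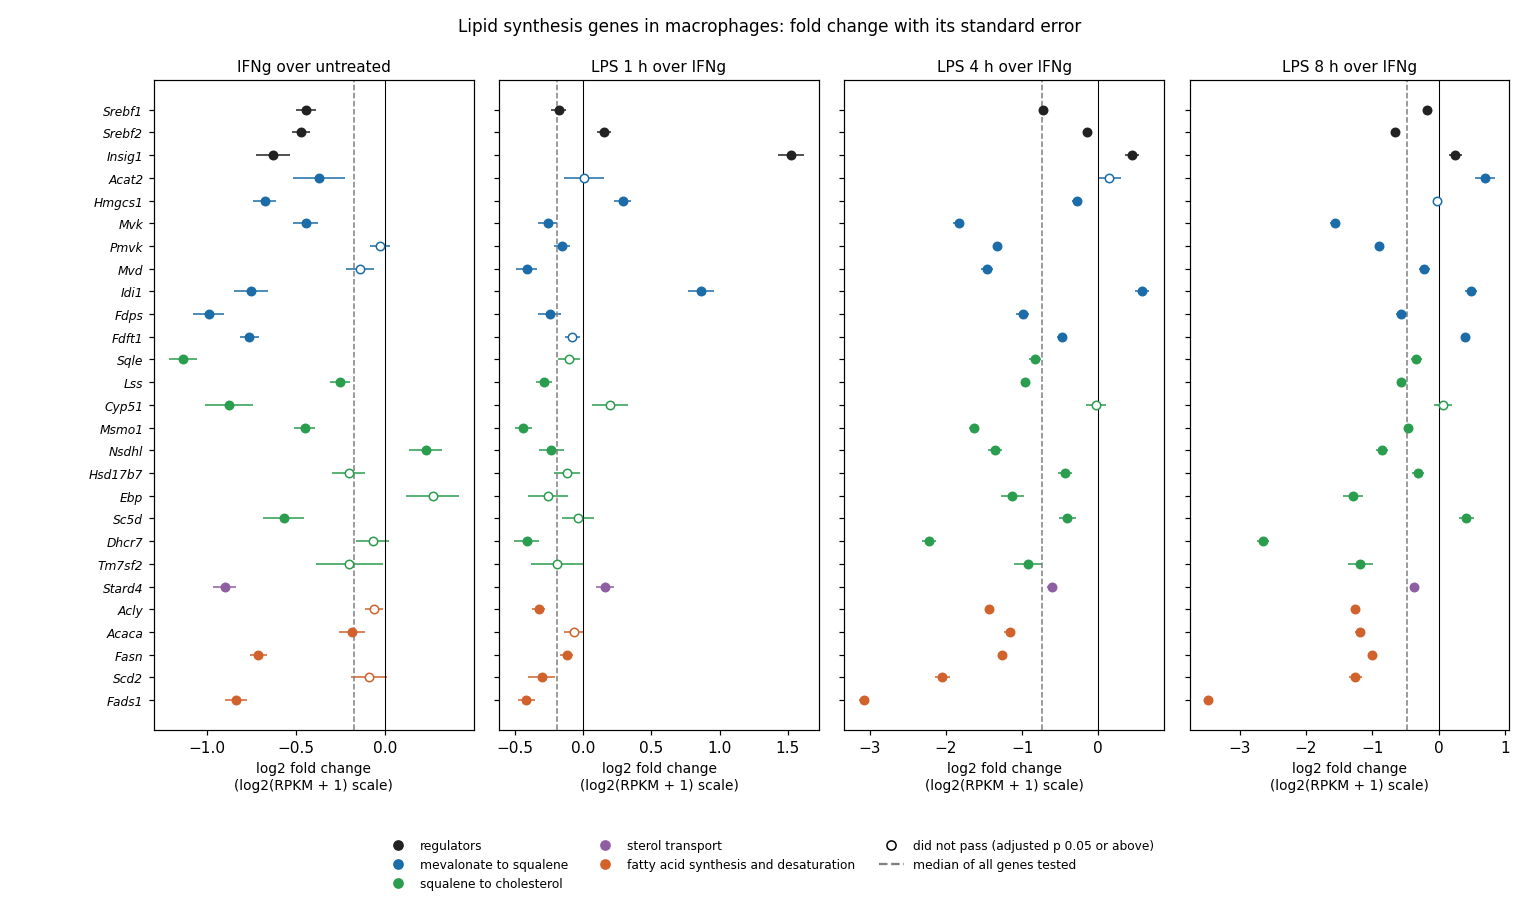
Log2 fold change (horizontal axis, log2(RPKM + 1) scale) of the 27 members tested (vertical axis) for IFNg over untreated and for each time of LPS over IFNg; points are fold changes over the 4 kinds of cell with bars of 1 SE, filled where the member passed, and the dashed line is the median of all genes. At 4 h of LPS Fads1 lies near -3 and Insig1 and Idi1 right of 0.

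Across the 5 macrophage treatments, 9 to 12 of 27 members differed between a construct and mock, a share near that of all genes. With hWT, 5 of 27 were higher and 4 lower, against 35.7 percent of all genes called (17.8 percent higher and 17.9 percent lower); with hG388S 10 and 2 against 35.9 percent (21.1 higher and 14.8 lower); and with h379_389 8 and 3 against 38.3 percent (20.6 higher and 17.7 lower). Scd2 and Fads1 rose in all 3. The log2 fold changes were 0.42 ± 0.09, 0.69 ± 0.09 and 0.62 ± 0.09 for Scd2, and 0.44 ± 0.06, 0.56 ± 0.06 and 0.49 ± 0.06 for Fads1 (SE, hWT, hG388S and h379_389 in turn). With IFNg, where both kinds came from 1 run, Fads1 had 21.2 and 20.8 RPKM with hWT against 9.53 and 10.2 RPKM with mock. The hWT libraries were about 2 times the mock ones (log2 fold change 1.02 ± 0.12 SE, limma adjusted p = 2.8e-06), in a comparison where 12 percent of all genes and 5 of 27 members were called. Mvd fell with each construct (-0.44 ± 0.07, -0.33 ± 0.07 and -0.46 ± 0.07), and Srebf1 with each (-0.19, -0.22 and -0.26). Pmvk (0.32, 0.42 and 0.36) and Dhcr7 (0.28, 0.45 and 0.38) rose. The hWT count was 14 without the shallowest library, hWT untreated library 1, and 18 without hWT untreated library 2. Within runs, where LPS 4 h libraries of hWT and mock are apart, it was 6 higher and 6 lower without 4 h, against 16.1 and 15.4 percent of all genes.

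The change from IFNg to 4 h of LPS differed between hWT and mock in 7 members, 3 more positive and 4 more negative with hWT, against 24.4 percent of all genes called (9.42 percent higher and 15 percent lower). Msmo1 (0.79 ± 0.17, adjusted p = 0.0016) was more positive, and Fads1 (-0.76 ± 0.18, adjusted p = 0.0028) more negative. Msmo1 at 4 h had 3.86 and 3.91 RPKM with hWT against 2.37 and 2.34 RPKM with mock. Their runs differed at 4 h, so run and construct cannot be told apart there. Scaling gave 5 more positive and 4 more negative.

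Other genes of these pathways, in 3 lists, moved as follows. Of 8 oxysterol and LXR genes, 1 was higher and 4 lower in KO than in WT at day 0, where 26.5 percent of all genes were higher and 13.7 percent lower. The smallest adjusted p-values were those of Cyp27a1 (-4.99 ± 0.19, adjusted p = 4.0e-11) and Ch25h (2.99 ± 0.16, adjusted p = 1.1e-09), given as log2 fold change ± SE; Cyp27a1 and Ch25h make oxysterols. Of 6 genes of the SREBP processing machinery, 1 was higher and 0 lower at day 0, and of 11 other lipid synthesis genes 5 were higher and 2 lower. With hWT at day 0, 6 of 6 machinery genes were higher than with mock, where 48.1 percent of all genes were higher, led by Mbtps1, which cuts SREBP in the Golgi (0.72 ± 0.07, adjusted p = 3.8e-09). With IFNg, 1 machinery gene was higher and 5 lower than untreated, where 22.3 percent of all genes were higher and 49.6 percent lower. At 4 h of LPS 1 was higher and 4 lower than with IFNg alone, where 15.3 and 73.9 percent of all genes were. Abcg1, which exports cholesterol and is an LXR target, was lower at 4 h of LPS than with IFNg, and it and Lpcat3 were the members of that list with the smallest adjusted p-values, Abcg1 (-3.41 ± 0.05, adjusted p = 1.7e-25) and Lpcat3 (-1.18 ± 0.08, adjusted p = 3.2e-13).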

How the data were processed

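The authors mapped reads to mm10 with Tophat and calculated gene levels in Partek, as the deposited table gives RPKM per the file headers; deepTools, TopHat2 2.1.0, bcl2fastq 2.17.1 and CASAVA 1.8.4 are further tools in the submitters' processing notes, which give no roles. Whether counting used strand is not given here. The authors' q-values came with their deposited comparisons. Groups came from sample titles. In each of 3 experiments (17, 33 and 40 libraries; 11530, 11374 and 11237 genes with at least 1 RPKM in 2 libraries) limma 3.58.1 in R 4.3.3 was fitted to log2(RPKM + 1) with 1 mean per group and a mean-variance trend, two-sided, with Benjamini-Hochberg adjustment over all genes tested and a threshold of 0.05. The fit was tested on simulated data. Members and lists were chosen with earlier results of these data known. Named in each comparison are up to 4 members with the largest rise and 4 with the largest fall among those that passed and, of those that did not pass, the member with the highest level; others are named as examples. Alternatives were a pseudocount of 0.1, no filter, median-of-ratios scaling, a length trend subtracted, only the groups of the comparison, a replicate block, leaving out libraries and, added after seeing the data, 4 libraries left out and comparisons within runs. As the files give RPKM without counts per gene, no counting interval is given.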

Additional observations from a re-analysis of the deposited data

Results flagged for a closer look

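The change from day 0 to day 4 differed between KO and WT, by a test of the difference itself, in 7 of 30 members, against 27.6 percent of all genes. With median-of-ratios scaling 3 members were more positive and 2 more negative in KO, and Acat2 (adjusted p = 0.056) and Fdps (0.12) lost their calls. Those named were Fads2 (-2.56 ± 0.48), Elovl6 (-1.41 ± 0.19), Fdps (-1.37 ± 0.37) and Acat2 (-1.17 ± 0.26), as differences of log2 fold changes with SE (limma adjusted p = 0.00092, 4.4e-05, 0.013 and 0.0035).

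Between hWT and mock the change over the same days differed in 22 of 29 members, against 60 percent of all genes. Pmvk (0.86 ± 0.17), Ebp (0.83 ± 0.20), Tm7sf2 (0.57 ± 0.22) and Fdft1 (0.43 ± 0.16) were more positive with hWT. Srebf2 (-2.01 ± 0.25), Hsd17b7 (-1.48 ± 0.17), Fasn (-1.39 ± 0.26) and Dhcr7 (-1.14 ± 0.20) were more negative. The mock libraries at day 0 and the hWT libraries at day 4 stood apart, and their part was not tested.

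In macrophages the change from IFNg to 4 h of LPS differed between hWT and mock in 7 of 27 members, against 24.4 percent of all genes. Msmo1 (0.79 ± 0.17), Fdft1 (0.54 ± 0.16) and Pmvk (0.50 ± 0.16) were more positive with hWT, and Fads1 (-0.76 ± 0.18), Acly (-0.62 ± 0.14), Srebf2 (-0.59 ± 0.14) and Fasn (-0.56 ± 0.13) more negative. Run and construct cannot be told apart at 4 h.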

How the results depend on the processing

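Groups of 2 or 3 libraries limit what these counts show. The shares of all genes given above belong to the main fit or to comparisons within runs. For the alternative settings, and at an unadjusted p, such shares were not counted. Member counts under those settings therefore do not set the members apart from other genes. Counts of called members that moved over 1.5 times were, with median-of-ratios scaling, 13 for KO against WT at day 4 and 10 for LPS 1 h. With only the groups of the comparison they were 27 for KO against WT at day 0 and 0 at day 4, 7 for WT and 1 for KO at day 8 against day 4, 15, 8 and 6 for hWT, hG388S and h379_389 at day 4, 21 for hG388S in macrophages and 15 for the hWT and LPS 4 h interaction. With the 4 length-trend libraries left out, which leaves 1 WT library at day 4 and 1 KO library at day 8, each assumed to vary like the other groups, they were 12 and 23 for KO against WT at days 4 and 8, 14 for WT day 4 against day 0, 22 for KO day 8 against day 4 and 17 for the KO interaction. A pseudocount of 0.1 or no filter gave 2 for hG388S at day 4, the length trend subtracted 2 for h379_389 at day 4 and 3 for mock day 8 against day 4, and leaving out the shallowest library 14 for hWT in macrophages. Under scaling, Acly (IFNg, 0.14), Cyp51 (LPS 4 h, 0.69) and Hmgcs1 (LPS 8 h, 0.58) reversed; none had been called. The cause was not tested.

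With each library left out in turn, the counts ran from 23 to 24 for h379_389 against mock day 0, 1 to 1 for h379_389 against mock day 4, 10 to 15 for h379_389 against mock day 8, 10 to 11 for h379_389 against mock macrophages, 22 to 24 for hG388S against mock day 0, 1 to 3 for hG388S against mock day 4, 6 to 11 for hG388S against mock day 8, 11 to 14 for hG388S against mock macrophages, 22 to 26 for hWT against mock day 0, 6 to 8 for hWT against mock day 4, 5 to 5 for hWT against mock day 8, 8 to 18 for hWT against mock macrophages, 20 to 24 for interaction of hWT and day 4 against day 0, 5 to 7 for interaction of hWT and LPS 4 h against IFNg, 4 to 10 for interaction of KO and day 4 against day 0, 12 to 13 for KO against WT day 0, 3 to 12 for KO against WT day 4, 4 to 11 for KO against WT day 8, 14 to 18 for KO day 4 against day 0, 2 to 11 for KO day 8 against day 4, 17 to 22 for macrophages IFNg against untreated, 15 to 17 for macrophages LPS 1 h against IFNg, 25 to 25 for macrophages LPS 4 h against IFNg, 24 to 25 for macrophages LPS 8 h against IFNg, 21 to 24 for mock day 4 against day 0, 1 to 6 for mock day 8 against day 4, 5 to 16 for WT day 4 against day 0, 8 to 18 for WT day 8 against day 4.

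Whether replicate numbers pair the libraries was not settled. In the 3 experiments 13 of 40, 48 of 168 and 92 of 380 same-numbered pairs correlated over 0.1. Their largest correlations were 0.899, 0.609 and 0.545. Pairs with other numbers were not counted this way, and in groups of 2 the deviations of the libraries mirror each other. The median correlations of same-numbered pairs were -0.00534, -0.00927 and -0.00544 in the 3 experiments. Those of pairs with other numbers were 0.00767, 0.00804 and 0.00544. With a replicate block the count was 18 for KO against WT at day 0, and no count moved over 1.5 times.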
